A study of Canis lupus familiaris with 5 samples.

Results

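Endoplasmic reticulum chaperones were followed through canine bone marrow by single-cell RNA sequencing. The group comprised 7 genes chosen by name: HSPA5, HSP90B1, CALR, CANX, PDIA3, PDIA4 and PDIA6. Their identifiers in the matrices were, in that order, ENSCAFG00000020196, ENSCAFG00000007427, ENSCAFG00000017093, ENSCAFG00000000348, ENSCAFG00000013214, ENSCAFG00000003403 and ENSCAFG00000003477. All 7 were present among the 20257 features of each count matrix, and their levels were read per library and in 9 sets of cells (gates) drawn on the UMI counts of other genes. A unique molecular identifier (UMI) marks 1 captured transcript.

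Femoral marrow came from 3 healthy dogs, labelled Wt for genotype. Whole marrow, from which red cells had been lysed, gave 3 libraries (whole marrows 1 to 3). Viable CD34+ cells sorted from marrows 2 and 3 gave 2 further libraries (CD34-sorted 1 and 2). CD34 is a surface glycoprotein of stem and progenitor cells. Over all cells, 8 stem and progenitor markers summed to 39.2, 38.6 and 35.8 CPM in the whole marrows and 644 and 441 CPM in the sorted libraries. Cells are not replicates, so all tests ran over libraries of only 3 dogs. Each fit left 1 to 3 residual degrees of freedom per gene. The test in edgeR therefore pools the spread over genes. Small p-values rest largely on that pooled spread and do not measure the spread between dogs alone.

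Proteins bound for secretion, granules or the cell surface enter the endoplasmic reticulum during synthesis and fold there. HSPA5 (BiP) is its HSP70 chaperone and HSP90B1 (GRP94) its HSP90 chaperone. CALR (calreticulin, soluble) and CANX (calnexin, membrane bound) hold glycoproteins by their sugars, and PDIA3 works with them on disulfide bonds. PDIA4 and PDIA6 are further protein disulfide isomerases. In marrow the heaviest secretory load falls on plasma cells, which release antibody, and on promyelocytes, which fill granules with proteases. When unfolded proteins build up, cells mount the unfolded protein response, whose regulators include XBP1, ATF4 and ATF6.

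Of 27953 barcodes, 24708 were kept: they held 200 genes or more, and mitochondrial genes gave no more than 10% of their UMIs. Whole marrows 1 to 3 kept 7295, 4585 and 4343 cells, and CD34-sorted libraries 1 and 2 kept 4720 and 3765. Deposited totals ran from 46114431 to 70169186 UMIs per library, and pairs of libraries shared 3 to 11 cell barcodes. The gates were SULT1B1+TFPI of at least 4 UMIs (stem and progenitor), MPO of at least 0.1% with ELANE under 1% (early granulocyte), ELANE of at least 1% (promyelocyte stage), CAMP of at least 1% (later granulocyte), JCHAIN of at least 0.2% without MS4A1 (antibody-secreting), MS4A1 of at least 2 UMIs (B cell), VPREB1 of at least 5 UMIs (early B lineage), VCAN of at least 2 UMIs (monocyte lineage) and AHSP of at least 0.2% (erythroid). The words in brackets say what each gate gene is known for and are not cell calls. Gates overlap: 230, 129 and 123 cells of marrows 1 to 3 passed both the ELANE and CAMP gates. Levels are counts per 1000000 UMIs (CPM) of summed cells. They are not corrected for transcript length, so genes are not ranked against each other.

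The members did not share a common profile. In whole marrow HSP90B1, PDIA4 and PDIA6 had their highest mean level in the JCHAIN gate. HSPA5 had a mean of 443 CPM there and 423 CPM in the ELANE gate, but only the latter mean includes marrow 3. Marrow by marrow, HSPA5 was higher in the ELANE gate in marrows 2 and 3 and higher in the JCHAIN gate in marrow 1. PDIA3 peaked in the ELANE gate, CALR in the MPO gate and CANX in the AHSP gate. The lowest mean levels lay in the AHSP gate for HSPA5, PDIA3 and PDIA6 and in the CAMP gate for HSP90B1, CALR, CANX and PDIA4. Taken as ranges over libraries, without pairing by marrow, the first and second gates overlapped for every member but PDIA4, which was highest in the JCHAIN gate. Marrow by marrow, CALR too was higher in the MPO gate than in the JCHAIN gate, its second, in every marrow. These means cover sums of at least 20 cells, which for the JCHAIN gate are marrows 1 and 2.

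**Figure D1:**
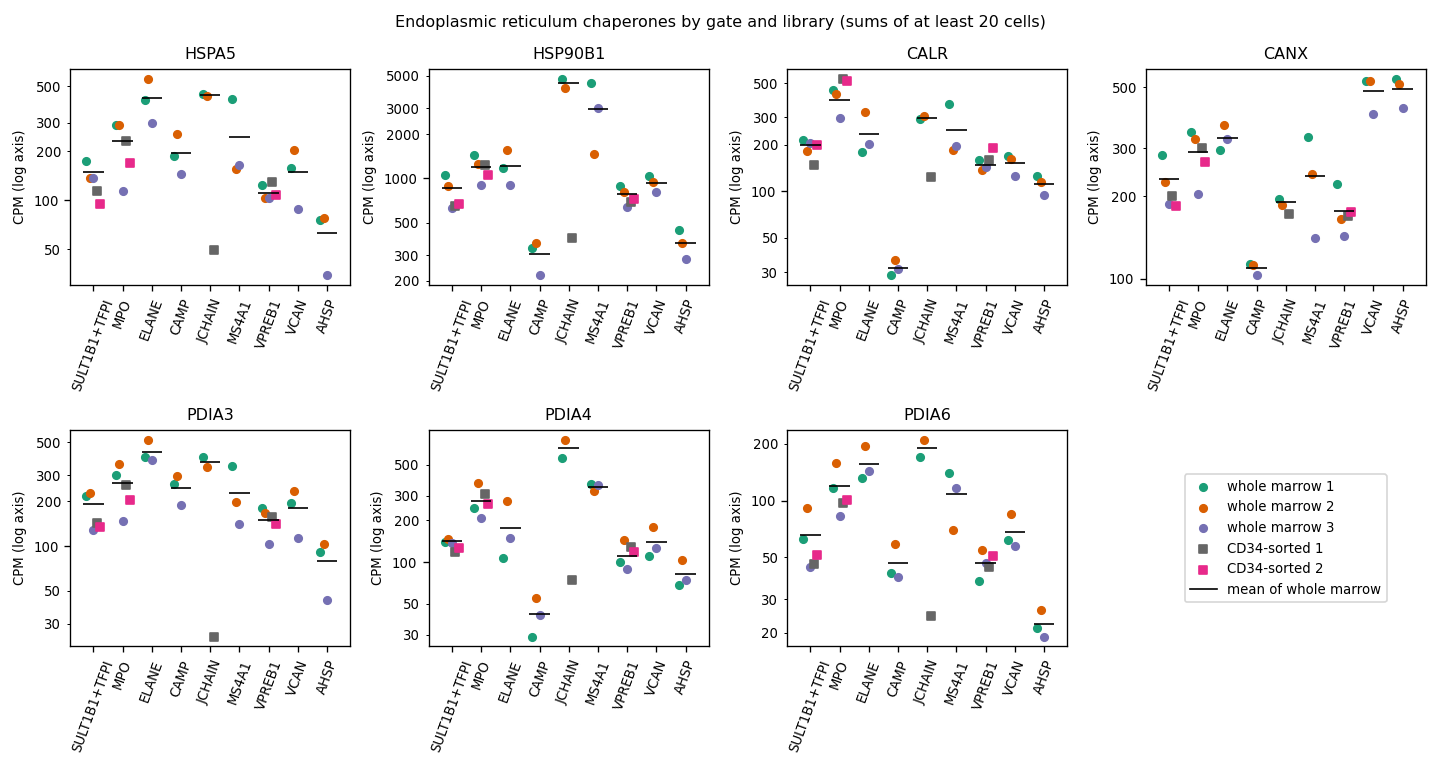
Level of each member (CPM, log axis) in 9 gates. Each point is the sum of at least 20 cells of 1 library (circles, whole marrow; squares, CD34-sorted) and each bar is the whole-marrow mean. HSP90B1 stands highest in both JCHAIN sums and in the MS4A1 sum of marrow 1, and CALR falls to 28.5 to 35.8 CPM in the CAMP gate.

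HSP90B1 reached 4788, 4146 and 2113 CPM in the JCHAIN gate of marrows 1, 2 and 3. The gate held 39, 35 and 12 cells there, and marrow 3, under the minimum of 20, entered no main test. HSPA5 stood at 449.6, 437 and 130.0 CPM in the same 3 sums. Marrows 1 and 2 were close for both chaperones and marrow 3 was lower. Its 12 cells gave 42.8% of their UMIs to 1 feature without a symbol (ENSCAFG00000031806), against 43.6% and 17.3% in marrows 1 and 2.

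Among the lectin chaperones, CALR measured 292, 305 and 105 CPM and CANX 195, 186 and 80.5 CPM in the JCHAIN gate of marrows 1 to 3. CANX was lower there than in the ELANE, VCAN and AHSP gates of every whole marrow. PDIA4 measured 563, 758 and 381 CPM, above its level in each of the other 8 gates of the same marrow. PDIA3 stood at 396, 340.4 and 108 CPM and PDIA6 at 170.4, 209.6 and 77.4 CPM.

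Within the JCHAIN gate the cells were uneven. The summed members exceeded 10000 CPM in 12 of 39, 6 of 35 and 1 of 12 cells of marrows 1 to 3, and the highest cell, in marrow 1, reached 45713 CPM. HSP90B1 alone made up to 3.47% of the UMIs of a cell. In marrow 1, 17 cells just inside the gate (JCHAIN from 0.2% to 0.4% of UMIs) held 6349 CPM of the members, and 28 cells just below it (0.1% to 0.2%) held 14203 CPM. The level was thus higher just outside the threshold than just inside it.

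Plasma cell markers (8 genes, of which MZB1, XBP1 and DERL3 are themselves endoplasmic reticulum genes) summed to 1539.9, 2587 and 1699 CPM in the JCHAIN gate of marrows 1 to 3 and to at most 109.8 CPM in any gate outside the B lineage. In human marrow plasmacytoid dendritic cells also carry JCHAIN, and 6 of their markers summed to 75.97, 84.2 and 61.9 CPM. Cells with a UMI of TCF4, 1 of those markers, held 6340.3 and 6021 CPM of the members in marrows 1 and 2, and cells without it held 8082 and 7011 CPM. TCF4 was widespread, in 133 of 206 VPREB1-gate cells of marrow 1 and in 3674 of 4720 cells of CD34-sorted library 1. The split therefore does not separate plasmacytoid dendritic cells from the others. Neutrophil granule RNA was present too: later granulocyte markers summed to 9217, 4584 and 11201 CPM in the JCHAIN gate, and their part in the members' levels was not tested. In CD34-sorted library 1 the 23 cells of the JCHAIN gate all passed another gate as well. Their members summed to 862 CPM and their plasma markers to 369 CPM, while 6 markers of early B cells summed to 6253 CPM.

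The MS4A1 gate, meant to hold B cells, was mixed. Of its 48, 47 and 97 cells in marrows 1 to 3, 17, 11 and 20 carried a UMI of JCHAIN or of TNFRSF17, the plasma cell receptor BCMA. In these cells HSP90B1 measured 6808, 2552 and 5287 CPM. In the remaining 31, 36 and 77 cells it measured 787, 510.5 and 572 CPM. PDIA4 measured 477, 473 and 567 CPM in the former and 180.3, 198 and 135 CPM in the latter. The sets did not overlap in either gene. This split was chosen after the values were seen and has no test.

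**Figure D2:**
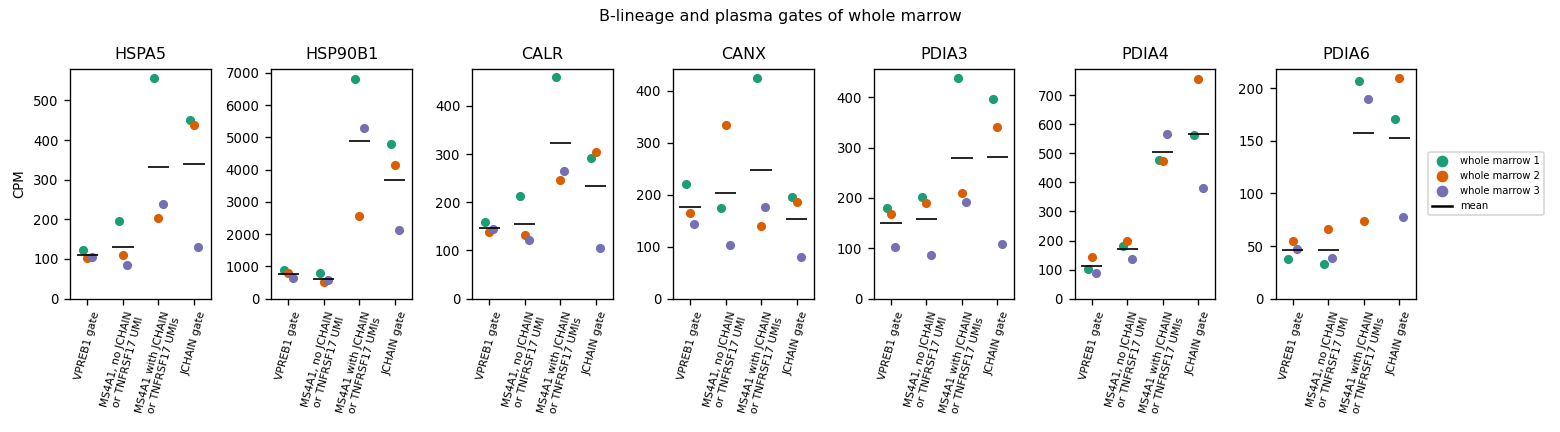
Level of each member (CPM, linear axis from 0) in the VPREB1 gate, in MS4A1-gate cells without and with UMIs of JCHAIN or TNFRSF17, and in the JCHAIN gate. Points are whole marrows 1 to 3 and bars their means. The marrow 3 point of the JCHAIN gate rests on 12 cells. HSP90B1 and PDIA4 are high in the 2 right-hand sets and low in the 2 left-hand sets.

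JCHAIN-gate and MS4A1-gate cells were compared in marrows 1 and 2. HSP90B1 measured 4788 and 4146 CPM against 4475 and 1470.2 CPM, higher in the JCHAIN gate of both dogs. In marrow 3, left out of the test for its 12 JCHAIN-gate cells, HSP90B1 was instead lower in the JCHAIN gate than in the MS4A1 gate. PDIA4 was higher there. PDIA4 measured 563 and 758 CPM against 362 and 327 CPM, again higher in both. CANX measured 195 and 186 CPM against 328 and 242 CPM, lower in both. In edgeR's quasi-likelihood test with TMM factors, which set each gene against the bulk of genes, 6 of 7 members were called higher and 0 lower; of all 3344 genes tested, 11.5% were called higher, 7.83% lower and 19.3% in either direction. The median log2 fold change was 1.81 over the 7 members and 0.01 over all 3344 genes tested. HSP90B1 rose by 1.82 ± 0.26 (log2 ± SE, edgeR adjusted p = 5.00e-10) and PDIA4 by 1.94 ± 0.30 (edgeR adjusted p = 8.05e-09). CANX was at 0.46 ± 0.30 with TMM and at -0.59 on library sizes alone, and neither passed.

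These calls depend on the scaling and on the block. Without the library as a block 0 of 7 members passed in edgeR's test. The share of all genes called in that fit is not given here, so this count does not speak for the members alone. TMM moved the median of all genes by 1.04 on the log2 scale, and 59.4% of all called genes were higher under TMM and 2.16% without it. On library sizes alone 0 of 7 members passed, with HSP90B1 at 0.77 (edgeR adjusted p = 0.23). Over all genes that scaling called 28 higher and 1269 lower, so few genes of any kind were called higher. The unnamed leading feature took 43.6% and 17.3% of UMIs in the JCHAIN gate and 9.35% and 11.1% in the MS4A1 gate of marrows 1 and 2. When MS4A1 cells with JCHAIN or TNFRSF17 UMIs were left out, a choice made after seeing the data, all 7 members were called higher and HSP90B1 stood at 4.31 (log2). The cells left out were already known to hold more HSP90B1, so this fit is no separate support. Its share of all genes called is not given here either.

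Other genes of the secretory route were also higher on the TMM scale. Of 19 tested luminal folding factors 18 rose and 0 fell, among them TXNDC5, a disulfide isomerase of plasma cells (2.07 ± 0.30), and PRDX4, a peroxiredoxin of the reticulum (2.16 ± 0.29). Of 16 translocon and signal peptidase genes 14 rose, led by SRPRA and SSR4, and of 11 degradation genes 9 rose, led by SEL1L and DERL1. Of 5 regulators of the unfolded protein response 4 rose, XBP1 by 1.74 ± 0.33 and ATF4 by 1.13 ± 0.30. Of 15 cytosolic and mitochondrial chaperones 1 rose and 5 fell, HSP90AA1 by 1.28 ± 0.30. List medians (log2 fold change) were 1.74 for the luminal list, 1.32 for translocon, 1.08 for N-glycosylation, 1.35 for degradation and -0.79 for cytosolic and mitochondrial chaperones. On library sizes alone XBP1 stood at 0.69 and ATF4 at 0.08, neither of which passed.

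Members were lower in the VPREB1 gate than in the MS4A1 gate. In the VPREB1 gate HSP90B1 measured 888, 806 and 639 CPM in marrows 1 to 3, against 4475, 1470.2 and 3016 CPM in the MS4A1 gate. PDIA6 measured 37.5, 54.98 and 47.01 CPM against 139.7, 69.8 and 117 CPM. Both were lower in the VPREB1 gate of every marrow. All 7 members were called lower; of all 4767 genes tested, 8.12% were called higher, 10.5% lower and 18.6% in either direction. The median log2 fold change was -1.52 over the 7 members and -0.04 over all 4767 genes tested. HSP90B1 fell by 2.33 ± 0.25 (edgeR adjusted p = 0.00223). TMM moved the median of all genes by -0.50, and 43.7% of all called genes were higher under TMM and 84.5% without it. Without TMM 4 of 7 members were called lower, where 1204 of all genes were called higher and 221 lower. None of the members was called once MS4A1 cells with JCHAIN or TNFRSF17 UMIs were left out, in edgeR's test, and HSP90B1 then stood at 0.22. The share of all genes called in that fit is not given here. Without marrow 1, whose MS4A1 gate held the highest HSP90B1, 1 member was called. That fit rests on fewer marrows, its share of all genes called is not given here, and the cause of the lower count was not tested. MZB1, a plasma cell chaperone, had 0 UMIs in the VPREB1 gate of all 3 marrows, against 88.9, 364 and 453 CPM in the MS4A1 gate. Of 18 other luminal factors tested 16 fell and 0 rose, and of 17 translocon genes 15 fell and 0 rose. By median log2 fold change, the luminal list stood at -2.08, translocon at -1.51, N-glycosylation at -1.02, degradation at -1.32 and cytosolic and mitochondrial chaperones at 0.22.

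Cells outside every gate included further high ones. Of these, 59, 18 and 16 cells in marrows 1 to 3 carried a TNFRSF17 UMI. They held 9544, 4133 and 3853 CPM of HSP90B1 and 861, 749 and 455 CPM of PDIA4. The other ungated cells held 771, 899 and 543 CPM of HSP90B1. This set, too, was looked at after the values were known.

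Along the granulocyte gates all 7 members were higher in the MPO gate than in the SULT1B1+TFPI gate of the sorted libraries, and lower in the CAMP gate than in the ELANE gate of whole marrow. Of the 1534 and 1675 sorted SULT1B1+TFPI cells, 558 and 803 also passed the VPREB1 gate. In the CD34-sorted libraries HSPA5 measured 114 and 95.3 CPM in the SULT1B1+TFPI gate and 231 and 170.2 CPM in the MPO gate. CALR measured 148 and 199 CPM and 535 and 513 CPM. Neither gene's gates overlapped. All 7 members were called higher in the MPO gate; of all 10593 genes tested, 27.2% were called higher, 25.2% lower and 52.4% in either direction. The median log2 fold change was 1.11 over the 7 members and 0.00 over all 10593 genes tested. CALR rose by 1.79 ± 0.10 (edgeR adjusted p = 3.16e-06), PDIA4 by 1.40 ± 0.07 and CANX by 0.74 ± 0.06. TMM moved the median of all genes by 0.18, 51.8% of all called genes were higher under TMM and 32.8% without it, and the 7 members were called on either scaling. All 7 were also called with cells of a single gate, CALR at 1.92 and HSPA5 at 1.25. Without CD34-sorted library 1 HSPA5 and HSP90B1 lost the call (edgeR adjusted p = 0.0671 and 0.0581), and without library 2 HSPA5 did.

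Other luminal factors went with them in the sorted cells. Of 20 tested, 17 rose and 0 fell, led by ERO1A, the oxidase that recharges disulfide isomerases (2.28 ± 0.09), and P4HB, the founding isomerase (1.47 ± 0.09). Of 17 translocon genes 12 rose and 0 fell. Of 17 cytosolic and mitochondrial chaperones 12 rose and 2 fell, HSPB1 by 1.87 ± 0.07. List medians (log2 fold change) were 0.66 for the luminal list, 0.43 for translocon, 0.72 for N-glycosylation, 0.26 for degradation and 0.33 for cytosolic and mitochondrial chaperones. XBP1 rose by 0.46 ± 0.14 with TMM but did not pass on library sizes (0.29), and ATF4 fell by 0.33 ± 0.06.

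**Figure D3:**
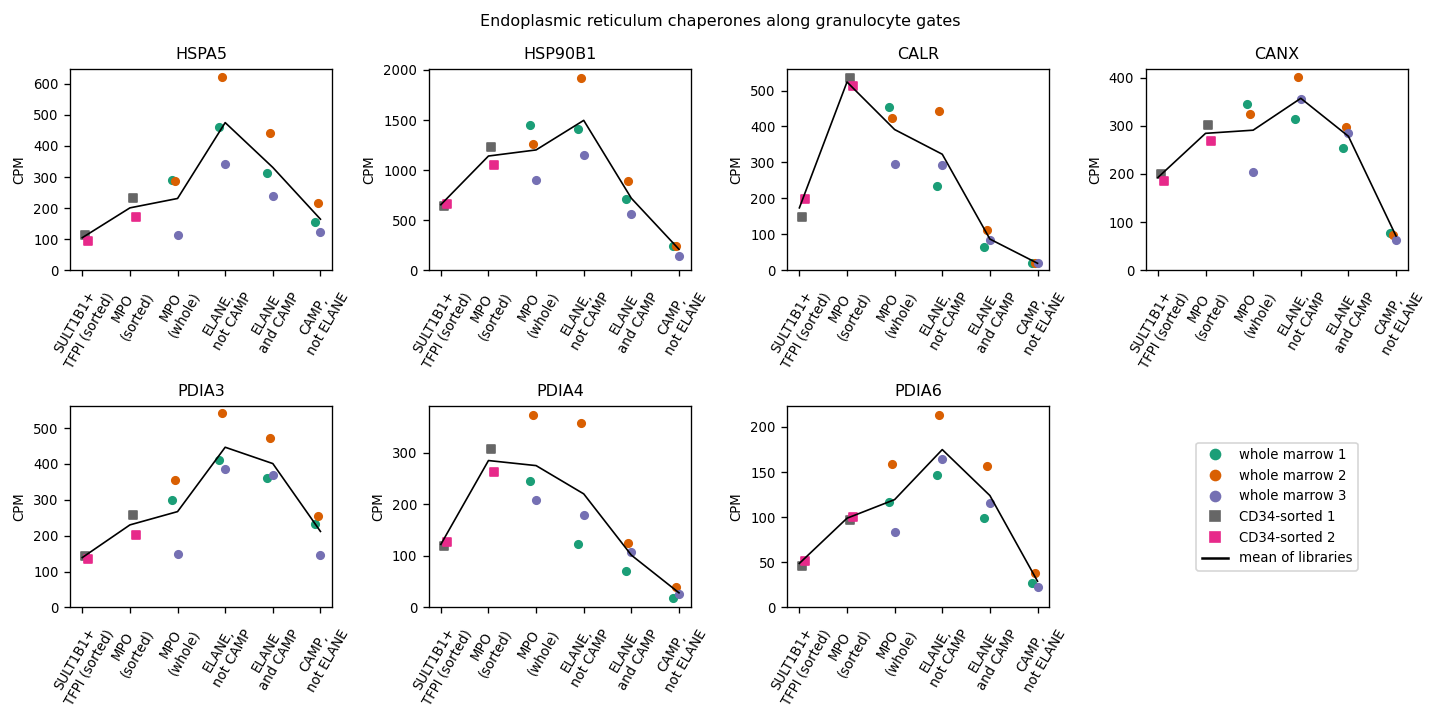
Level of each member (CPM, linear axis from 0) in the SULT1B1+TFPI and MPO gates of CD34-sorted libraries (squares), and in the MPO gate and 3 subsets of the ELANE and CAMP gates of whole marrow (circles). The line joins the means of the libraries. Means of HSPA5, HSP90B1, CANX, PDIA3 and PDIA6 peak in ELANE cells outside the CAMP gate and those of CALR and PDIA4 in MPO-gate cells. CAMP cells outside the ELANE gate are lowest except for HSPA5 and PDIA3, whose lowest mean is in the sorted SULT1B1+TFPI gate.

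ELANE-gate cells of whole marrow differed from MPO-gate cells in only part of the group. HSPA5 measured 289.9, 288 and 114 CPM in the MPO gate and 413, 559 and 296 CPM in the ELANE gate of marrows 1 to 3, higher in each marrow. PDIA3 went from 299, 355 and 148 CPM to 395, 518 and 379 CPM, also higher in each. CALR went from 454, 424 and 296 CPM to 178, 327 and 202 CPM, lower in each. PDIA4 went from 245, 373 and 208 CPM to 106, 277 and 148 CPM, lower in each as well.

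With TMM 5 of 7 members were called higher and 0 lower; of all 7208 genes tested, 26.6% were called higher, 29.0% lower and 55.6% in either direction. The median log2 fold change was 1.02 over the 7 members and -0.06 over all 7208 genes tested. HSPA5 rose by 1.75 ± 0.12 (edgeR adjusted p = 3.39e-48) and PDIA3 by 1.57 ± 0.12, while CALR (0.07 ± 0.11) and PDIA4 (0.13 ± 0.11) did not pass. TMM moved the median of all genes by 0.76, and 47.8% of all called genes were higher under TMM and 8.23% without it. On library sizes alone CALR fell by 0.68 and PDIA4 by 0.62 (edgeR adjusted p = 0.00354 and 1.14e-05), HSP90B1 stood at 0.09 without passing, and HSPA5, CANX, PDIA3 and PDIA6 were still called higher. In the ELANE gate SLPI, a secreted protease inhibitor, took 14.4%, 9.80% and 10.8% of UMIs.

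Of 20 other luminal factors 13 rose and 2 fell on the TMM scale, with SDF2L1, a partner of BiP, up by 1.63 ± 0.12. Of 17 translocon genes 14 rose and 1 fell, and of 17 cytosolic and mitochondrial chaperones 0 rose and 11 fell, HSPH1 by 1.52 ± 0.14. By median log2 fold change, the luminal list stood at 0.48, translocon at 1.02, N-glycosylation at 0.01, degradation at 0.10 and cytosolic and mitochondrial chaperones at -0.50. XBP1 rose by 1.19 ± 0.22 and ATF4 fell by 0.56 ± 0.11. On library sizes XBP1 stood at 0.44 without passing.

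The MPO gate of whole marrow joined deep and shallow cells: 85, 24 and 21 of its 162, 93 and 47 cells had under 2000 UMIs. Members summed to 1144, 1154 and 565 CPM in those and to 3252, 3199.7 and 2001 CPM in the deeper cells of marrows 1 to 3. Since deep cells supply most UMIs of a sum, the gate's level lies near theirs. With only cells of at least 2000 UMIs, an alternative added after seeing the data, HSPA5 stood at 1.74 between the ELANE and MPO gates.

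From the ELANE to the CAMP gate all 7 members fell. CALR measured 178, 327 and 202 CPM and then 28.5, 35.8 and 31.2 CPM. HSP90B1 measured 1180.2, 1562 and 897 CPM and then 334, 362 and 218 CPM. Every member was lower in the CAMP gate of each marrow. All 7 were called lower; of all 7966 genes tested, 34.5% were called higher, 35.1% lower and 69.6% in either direction. Fold changes on the log2 scale had a median of -1.72 over the 7 members and 0.01 over all 7966 genes tested. CALR fell by 2.81 ± 0.09 (edgeR adjusted p = 1.21e-13), HSP90B1 by 1.96 ± 0.06, HSPA5 by 1.08 ± 0.08 and PDIA3, which changed least, by 0.78 ± 0.06. Of the 516, 279 and 232 ELANE cells, 230, 129 and 123 also passed the CAMP gate and count in both sums. With cells of a single gate all 7 were called lower, at log2 fold changes of -4.08 for CALR, -2.88 for HSP90B1, -2.92 for PDIA4, -2.57 for PDIA6, -2.33 for CANX, -1.41 for HSPA5 and -0.996 for PDIA3. Here TMM moved the median of all genes by 0.02.

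Cells that passed both gates lay between. Summed members measured 3107, 4501 and 2872 CPM in ELANE cells outside the CAMP gate, 1869, 2497 and 1756 CPM in cells of both, and 771, 886 and 543 CPM in CAMP cells outside the ELANE gate. CALR went from 234, 442 and 292 CPM to 63.7, 113 and 83.5 CPM between the first 2 sets. PDIA3 differed less there, from 411, 541 and 387 CPM to 362, 474 and 368 CPM. In the cells just below the ELANE threshold (0.5% to 1% of UMIs) members summed to 1258, 1748 and 1325 CPM, and just inside it (1% to 2%) to 1789, 1881 and 2806 CPM.

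Of 21 other luminal factors 3 rose and 15 fell from the ELANE to the CAMP gate, FKBP11 by 3.06 ± 0.08. Of 17 translocon genes 3 rose and 13 fell, and of 12 N-glycosylation genes 1 rose and 10 fell. Of 13 degradation genes 4 rose and 4 fell. Cytosolic and mitochondrial chaperones fell as well, 12 of 17, although HSPB1 rose by 2.28 ± 0.15. List medians (log2 fold change) were -0.75 for the luminal list, -0.80 for translocon, -0.69 for N-glycosylation, 0.18 for degradation and -0.79 for cytosolic and mitochondrial chaperones. XBP1 fell by 1.34 ± 0.14, and ATF4 did not pass at 0.08 ± 0.07.

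The JCHAIN and ELANE gates were set side by side in marrows 1 and 2. HSP90B1 measured 4788 and 4146 CPM in the former and 1180.2 and 1562 CPM in the latter. PDIA4 measured 563 and 758 CPM and 106 and 277 CPM. Both were higher in the JCHAIN gate of each dog. HSPA5 measured 449.6 and 437 CPM and 413 and 559 CPM, and its gates overlapped. In edgeR's test 4 of 7 members were called higher and 0 lower; of all 5900 genes tested, 17.9% were called higher, 20.6% lower and 38.5% in either direction. The median log2 fold change was 0.61 over the 7 members and -0.10 over all 5900 genes tested.

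PDIA4 rose by 2.29 ± 0.23 (edgeR adjusted p = 2.39e-22) and HSP90B1 by 2.08 ± 0.26 (edgeR adjusted p = 1.24e-14). CALR (0.67 ± 0.22) and PDIA6 (0.61 ± 0.22) were called too, but CALR kept its call in 4 and PDIA6 in 5 of 14 alternatives. Both lost it with DESeq2, on library sizes alone, without the low-count filter, without the block, in the joint fit and without either marrow. HSP90B1 was called in 13 and PDIA4 in 14 of the 14 alternatives. The median of all genes moved by 0.46 with TMM (46.5% of all called genes were higher under TMM and 25.6% without it). HSPA5 (0.25 ± 0.22) and PDIA3 (0.07 ± 0.22) did not pass, and stood at -0.20 and -0.38 on library sizes. In simulated data for these 2 gates edgeR recovered only 11% of 2-fold changes, so members that did not pass may still differ. CANX stood at -0.41 ± 0.23 and was called lower on library sizes, at -0.87 (edgeR adjusted p = 0.00513). With 1 of the 2 marrows left out at a time, in a fit that assumes the lone sums vary like the other gates, HSP90B1 and PDIA4 were called higher and CANX lower.

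The wider secretory lists separated the gates too. Of 13 degradation genes all 13 rose in the JCHAIN gate, DERL3 from 16.9 and 18.3 CPM to 491 and 523 CPM. Of 21 luminal factors 17 rose and 1 fell, and of 17 translocon genes 13 rose and 1 fell. TXNDC5 had 2 and 9 UMIs in the ELANE gate, against 135 and 979 in the JCHAIN gate. TUSC3, an oligosaccharyltransferase subunit, fell by 2.22 ± 0.45. By median log2 fold change, the luminal list stood at 1.78, translocon at 1.32, N-glycosylation at 0.48, degradation at 2.11 and cytosolic and mitochondrial chaperones at -0.52. XBP1 rose by 3.05 ± 0.25 and ATF4 by 2.39 ± 0.23, and both were called on library sizes as well.

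Compared with the VCAN gate, ELANE-gate cells held more of all 7 members on the TMM scale. Of the 565, 512 and 322 VCAN cells of marrows 1 to 3, 86, 76 and 47 also passed the AHSP gate. Their median depth lay above that of the VCAN gate, and they held more CANX than VCAN cells outside the AHSP gate. The VCAN sums are thus not of monocyte-lineage cells alone, and the part of these cells in the fold changes is not given here. HSPA5 measured 158, 203 and 88.3 CPM in the VCAN gate and 413, 559 and 296 CPM in the ELANE gate of marrows 1 to 3. PDIA6 measured 61.9, 84.5 and 57.3 CPM and 131, 194 and 143 CPM. All 7 were called higher; of all 8923 genes tested, 30.2% were called higher, 36.8% lower and 67.0% in either direction. Fold changes on the log2 scale had a median of 1.61 over the 7 members and -0.12 over all 8923 genes tested. HSPA5 rose by 2.55 ± 0.10 (edgeR adjusted p = 2.88e-28), PDIA3 by 2.32 ± 0.11 and PDIA6 by 2.22 ± 0.10. CANX was called higher with TMM (0.46 ± 0.10) and lower on library sizes (-0.46), so its direction depends on the scaling. TMM moved the median of all genes by 0.92, and 45.1% of all called genes were higher under TMM and 10.9% without it. The other 6 kept their direction and call on library sizes. Of 20 luminal factors 16 rose and 2 fell, PRDX4 by 3.09 ± 0.17. List medians (log2 fold change) were 1.31 for the luminal list, 1.10 for translocon, 0.49 for N-glycosylation, 0.35 for degradation and -0.34 for cytosolic and mitochondrial chaperones.

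CANX was the member least like the rest. It measured 529, 527 and 398 CPM in the VCAN gate and 537, 513 and 422 CPM in the AHSP gate of marrows 1 to 3, above its level in every other gate of the same marrow. Some cells passed both gates: 86, 76 and 47 of them, with a median of 58348, 57134 and 73434 UMIs. In these CANX measured 733, 768 and 562 CPM, and in VCAN cells outside the AHSP gate 335, 302 and 263 CPM. Erythroid markers summed to 2123, 1589 and 2304 CPM in the VCAN gate and to 10716, 11394 and 11166 CPM in the AHSP gate. In the AHSP gate HSPA5 measured 75.7, 77.9 and 34.5 CPM and PDIA6 21.1, 26.3 and 19.05 CPM. The AHSP gate combined the highest whole-marrow mean of CANX with the lowest means of HSPA5, PDIA3 and PDIA6.

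The MPO gate was compared between sorted and whole marrow to see whether the sort itself went with a difference. In the MPO gate CALR measured 454, 424 and 296 CPM in whole marrows 1 to 3 and 535 and 513 CPM in the sorted libraries, which lay above all 3. HSPA5 measured 289.9, 288 and 114 CPM and 231 and 170.2 CPM, overlapping. Without a block for the dog, 0 of 7 members were called in edgeR's quasi-likelihood test, although each sorted library shares a dog with a whole marrow. Of all 7473 genes tested, 0.0937% were called higher, 1.61% lower and 1.70% in either direction, and 1023 had an unadjusted p below 0.05. DESeq2 also called 0, and edgeR called 0 genes of the 6 other lists. CALR stood at 0.43 ± 0.17 and HSPA5 at -0.20 ± 0.37. With the dog as a block CALR was called higher at 0.55 (edgeR adjusted p = 0.0369). Cell depth differed between the groups, with 348 of 351 and 442 of 442 sorted MPO cells at 2000 UMIs or more against 77 of 162, 69 of 93 and 26 of 47 in whole marrow.

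Over all cells, CANX was the only member called without a block for the dog. It measured 315, 349 and 245 CPM in whole marrows 1 to 3 and 229 and 224 CPM in the sorted libraries, lower in both sorted libraries than in any whole marrow. CALR measured 144, 153 and 105 CPM and 229 and 257 CPM, with the sorted libraries higher. Of 7 members 0 were called higher and 1 lower; of all 12476 genes tested, 15.9% were called higher, 17.4% lower and 33.3% in either direction. CANX fell by 0.70 ± 0.16 (edgeR adjusted p = 0.0224) and CALR stood at 0.57 ± 0.17 (edgeR adjusted p = 0.0512). TMM moved the median of all genes by -0.25 (47.9% of all called genes were higher under TMM and 65.8% without it). On library sizes alone CANX was not called (-0.45) and CALR was called higher (0.82). With the dog as a block, edgeR called CALR higher at 0.67 and CANX and HSPA5 lower, at -0.63 and -0.50. CANX also lost its call without CD34-sorted 1 (-0.73), CD34-sorted 2 (-0.70) or whole marrow 2 (-0.66), and at a mitochondrial limit of 5% (-0.21). The mix of cell types differs by design here, and fewer cells of a type and less RNA per cell cannot be told apart in these sums.

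**Figure D4:**
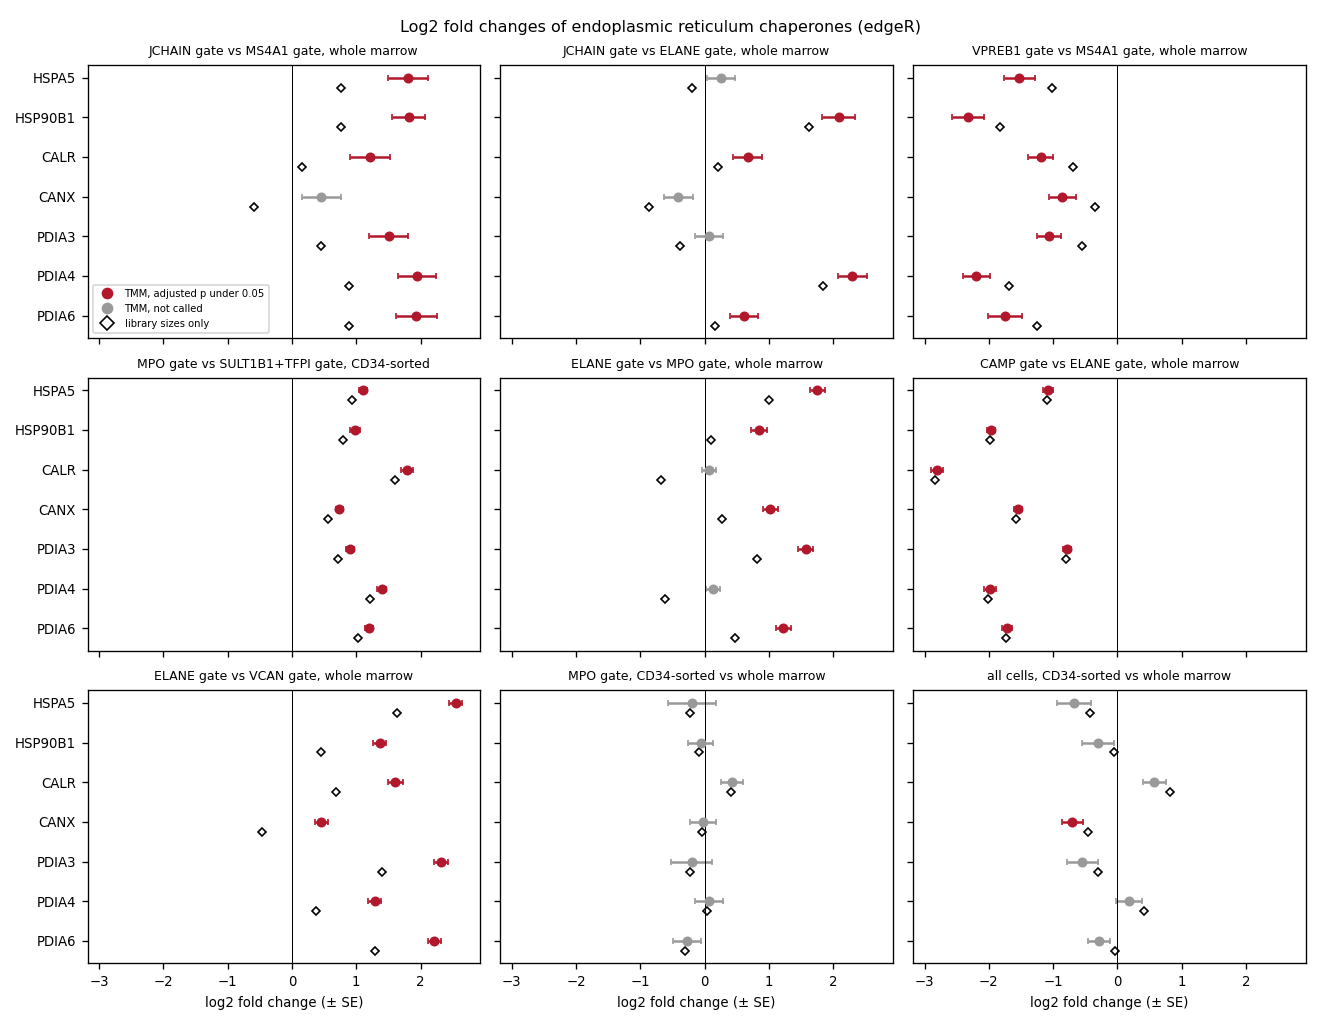
Log2 fold change of each member in 9 comparisons (first gate or group against the second). Circles are edgeR estimates with TMM factors and bars their standard errors (red, adjusted p under 0.05; grey, not called), and diamonds are estimates on library sizes alone. Diamonds sit left of the circles by 1.04 in the JCHAIN against MS4A1 comparison, and close to them from ELANE to CAMP.

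Whole marrow 3 was often the lowest of the 3 whole marrows. In the MPO gate 7 of 7 members were lowest in marrow 3, where 46.95% of genes were. In the VCAN and AHSP gates 6 of 7 were, beside 39.5% and 43.5% of genes, and in the MS4A1 gate 2 of 7, beside 28.5%. The summed members of marrow 3 stood at 0.611 to 0.911 of the mean of marrows 1 and 2 across 8 gates. With 1 library per dog this has no test.

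The share of cells with a UMI depended on cell depth. For HSP90B1 it was 94.9 and 100.0% in the JCHAIN gate of marrows 1 and 2, 96.7, 97.1 and 96.1% in the ELANE gate and 49.5, 53.7 and 50.4% in the CAMP gate of marrows 1 to 3. With each cell thinned to 1000 UMIs, which left 31, 35 and 12 cells in the JCHAIN gate, 503, 274 and 229 in the ELANE gate, 2409, 1445 and 1400 in the CAMP gate and 409, 431 and 258 in the AHSP gate of marrows 1 to 3, the shares were 86.5 and 92.1%, 58.1, 63.7 and 48.3% and 18.7, 19.99 and 13.3%, in the same order. CALR went from 59.7, 71.7 and 73.3% in the ELANE gate to 10.2, 12.01 and 15.5% in the CAMP gate, and thinned from 12.5, 19.96 and 13.3% to 1.98, 2.39 and 2.14%. In the AHSP gate, whose cells were deepest, HSPA5 was seen in 67.4, 68.8 and 63.4% of cells, and thinned in 8.07, 5.86 and 3.101%. The unthinned AHSP share lay above that of the CAMP gate (44.8, 54.5 and 51.1%) and the thinned share below it (14.6, 18.6 and 11.7%). Every nucleated cell is thought to make these chaperones, so no gate could serve as a background without them.

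Across 26 whole-marrow sums correlations between the members ranged widely, as a description over sums that share dogs and libraries. On log2(CPM + 1), HSPA5 and PDIA3 had a Pearson correlation of 0.957, HSP90B1 and PDIA4 of 0.905, HSPA5 and PDIA6 of 0.877, PDIA3 and PDIA6 of 0.832, and CALR and PDIA4 of 0.844. CANX had correlations from -0.129 with PDIA3 to 0.423 with CALR. Among 5485 genes with a mean of at least 10 CPM, the profiles most like the summed members were those of MANF (0.957), FKBP11 (0.946), CSNK1G1 (0.941), SSR2 (0.938), CRELD2 (0.937), HYOU1 (0.936), FKBP2 (0.890) and MAGT1 (0.889). HSP90B1 weighs most in that sum, and its own nearest profile was MANF (0.982), a secreted protein of the reticulum. The nearest to CANX outside the group was BOLA3 (0.902).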

How the data were processed

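Droplet libraries were made from 3 whole marrows and 2 CD34-sorted samples. The deposited matrices hold raw UMI counts per feature and barcode, without normalization. The header lines name Cell Ranger 7.0.1, whereas the submitters' processing notes give 7.1.0 and the CanFam 3.1 build. Barcodes with at least 200 genes and at most 10% UMIs of 13 mitochondrial genes were kept. Counts were summed per library and gate, with at least 20 cells per sum, and CPM uses all UMIs of the sum. Sums were tested with edgeR 4.0.16 (quasi-likelihood, robust, TMM, low-count filter by group, Benjamini-Hochberg over all genes at 0.05), with the library as a block between gates of the same marrow, since both gates come from 1 dog, and no block across the sort. The 10 gate genes left the fits. A standard error is the fold change over the root of its F statistic. DESeq2 1.42.0 was an alternative. In simulated data with up to 200 genes changed 2 fold, edgeR recovered 11% of them for JCHAIN against ELANE (5946 genes), 54% for JCHAIN against MS4A1 (3280 genes) and 73% to 92.5% in the other comparisons. Doublet scores (scanpy 1.11.5) marked the top 0.8% per 1000 cells of each library; these stayed in the main sums. Thinned shares are exact hypergeometric expectations. The members and lists were chosen with earlier results of these data known. In each comparison all members, XBP1, ATF4 and up to 2 genes per list with the largest called change were eligible for naming. The CD79A feature, high in every gate, was left out of the B marker sums.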

Additional observations from a re-analysis of the deposited data

How the results depend on the processing

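Counts of called members that moved by more than 1.5 times, and log2 fold changes that changed sign, are given for each alternative. The cause was not tested. The share of all genes called is not given beside these counts, so they do not speak for the members alone. Among the smaller moves, JCHAIN against MS4A1 gave 5 to 7 members higher, and sorted MPO against SULT1B1+TFPI gave 5 and 6 without CD34-sorted libraries 1 and 2. On library sizes alone, JCHAIN against MS4A1 gave 0 members higher, CANX -0.59; ELANE against MPO gave 2 members lower, CALR -0.68, PDIA4 -0.62; JCHAIN against ELANE gave 2 members higher, 1 member lower, HSPA5 -0.20, PDIA3 -0.38; ELANE against VCAN gave 1 member lower, CANX -0.46; VPREB1 against MS4A1 gave 4 members lower, ATF4 0.43; all cells sorted against whole gave 1 member higher, 0 members lower. Without the library as a replicate block, JCHAIN against MS4A1 gave 0 members higher; JCHAIN against ELANE gave 2 members higher. With JCHAIN at 1% of UMIs or more and sums of 10 cells, JCHAIN against MS4A1 gave CANX -0.26; JCHAIN against ELANE gave 1 member higher, HSPA5 -0.0541. At 5% mitochondrial UMIs, ELANE against MPO gave CALR -0.13; MPO sorted against whole gave HSPA5 0.24, HSP90B1 0.55, CANX 0.20; all cells sorted against whole gave 1 member higher, HSP90B1 0.00634. With DESeq2, JCHAIN against ELANE gave 2 members higher. Without a low-count filter, JCHAIN against ELANE gave 2 members higher, PDIA3 -0.18; MPO sorted against whole gave CANX 0.0148; all cells sorted against whole gave 1 member higher. In a joint fit over all gates, JCHAIN against ELANE gave 2 members higher, 1 member lower, PDIA3 -0.33. With sums of 10 cells, JCHAIN against ELANE gave 1 member lower, PDIA3 -0.16. Without TCF4-positive cells in the JCHAIN gate and with sums of 10 cells, JCHAIN against ELANE gave 2 members higher, PDIA3 -0.11. Without the JCHAIN-positive or TNFRSF17-positive cells of the MS4A1 gate, VPREB1 against MS4A1 gave 0 members lower, HSP90B1 0.22, ATF4 0.36. With the dog as a replicate block, MPO sorted against whole gave 1 member higher, HSPA5 0.0755, HSP90B1 0.10, CANX 0.13; all cells sorted against whole gave 1 member higher, 2 members lower. With 1 library left out at a time the ranges were CALR -0.0737 to 0.30 (ELANE against MPO), members higher 2 each time (JCHAIN against ELANE), members lower 1 each time (JCHAIN against ELANE), HSPA5 -0.0569 to -0.0312 (JCHAIN against ELANE), PDIA3 -0.56 to -0.39 (JCHAIN against ELANE), members lower 1 to 7 (VPREB1 against MS4A1), ATF4 -0.21 to 0.00912 (VPREB1 against MS4A1), PDIA4 -0.0714 to 0.30 (MPO sorted against whole), HSPA5 -0.49 to 0.000479 (MPO sorted against whole), HSP90B1 -0.21 to 0.0945 (MPO sorted against whole), CANX -0.20 to 0.11 (MPO sorted against whole), XBP1 -0.996 to 0.0888 (MPO sorted against whole), PDIA3 -0.47 to 0.00358 (MPO sorted against whole), members lower 0 to 3 (all cells sorted against whole), members higher 0 to 1 (all cells sorted against whole). The MS4A1 cells without JCHAIN or TNFRSF17 UMIs, the sums of 10 cells and the 2000 UMI limit were chosen after seeing the data. Of the other log2 fold changes, 964 kept direction and side of the threshold, 83 lost the call and 25 gained it. At 5% mitochondrial UMIs no fit was possible for JCHAIN against MS4A1, JCHAIN against ELANE, VPREB1 against MS4A1 or sorted MPO against SULT1B1+TFPI, nor with 20 cells for narrower JCHAIN gates. The JCHAIN gate held 12 to 39 cells a marrow. The sorted libraries were tied to dogs 2 and 3 through the protocol and their names.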

Other observations

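Cells with UMIs of the proliferation genes MKI67 or TOP2A held higher chaperone CPM than cells without in 3 gates of the sorted libraries. Summed members measured 1598 and 1643 CPM with these UMIs and 1203 and 1181 CPM without in the SULT1B1+TFPI gate of CD34-sorted libraries 1 and 2. In the VPREB1 gate they measured 1688 and 1613 CPM and 1145 and 1097 CPM, and in the MPO gate 3169 and 2756 CPM and 2439.8 and 2219 CPM. In the ELANE gate of whole marrows 1 to 3 the values were 2673, 3912 and 2360.4 CPM with and 2749, 3528 and 2469 CPM without, in no common order. These splits were chosen after seeing the data and have no test. A UMI of a given gene is seen more often in deeper cells, and the depth of the sets is not given here. A link to proliferation was thus not tested apart from depth.

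A few sorted cells reached the ELANE gate, 3 in CD34-sorted library 1 and 19 in library 2. Their CALR stood at 1213 and 1162 CPM, against 178, 327 and 202 CPM in the ELANE gate of whole marrows 1 to 3, and their PDIA4 at 524 and 392 CPM against 106, 277 and 148 CPM. With so few cells these are values only.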
